A study of Mus musculus with 79 samples.

Results

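Collagens are the main structural proteins of the extracellular matrix, and every row of the gene tables whose symbol names a collagen alpha chain was followed here. The tables listed 23361 genes, of which 44 were collagen chains. They were grouped by the structures their proteins build into 7 fibrillar, 8 basement membrane, 8 cartilage-type and 21 other collagens. All mice carried GFP under the human S100β promoter, which labels Schwann cells, and both sexes were used. The common peroneal nerve was grafted to the tibial nerve either at once (immediate repair) or after the tibial nerve had been left cut for 8 weeks (delayed repair), and animals of the immediate group had a sham incision in place of the earlier cut. RNA was taken at day 5 from the tibial distal stump (7 immediate and 9 delayed libraries), and from macrophages and Schwann cells sorted out of the regenerative bridge that formed in the silicone conduit. Macrophages gave 8 immediate and 9 delayed libraries at day 5 and 8 and 7 at day 14, and Schwann cells gave 7 and 9 libraries at day 5 and 8 and 7 at day 14. In all there were 79 libraries of 32 animals, each library from 1 animal.

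Collagen chains are made in the endoplasmic reticulum, where prolyl and lysyl hydroxylases modify them and the chaperone Hsp47 guards the folding triple helix. Fibrillar collagens are then trimmed of their propeptides and cross-linked by lysyl oxidases outside the cell, while type IV chains join into the network of basement membranes. In peripheral nerve, fibroblasts lay down the collagen fibrils around the fibres, and each Schwann cell with its axon is wrapped in a basement membrane tube that outlasts the axon after injury and guides regrowth. Cartilage-type collagens (types II, IX, X, XI and XXVII) are named for the tissue in which they are most abundant.

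Total counts per library were 3898778 to 9212709 in the stump, 14928745 to 28499407 in macrophages and 11614940 to 30796823 in Schwann cells, so that 3 counts in the smallest library corresponded to 0.769, 0.201 and 0.258 CPM, the counts of a gene per 1000000 counts of its library. The stump libraries were made from rRNA-depleted RNA and those of sorted cells from amplified cDNA, and the 2 kinds entered no test together. The macrophage libraries held Emr1 (F4/80) at 850 to 1544 CPM and Sox10 at no more than 1.75 CPM, while the 12 Schwann cell markers summed to 425 to 952 CPM there. The libraries labelled Schwann cells went partly against their label: the 10 dendritic cell markers summed to 25142 to 54264 CPM, with Ccr7 at 2413 to 9817 CPM, whereas the Schwann cell markers summed to 241 to 4938 CPM, in part below the macrophage libraries, and S100b was 0 in the lowest library. The part of these other cells in the values below was not tested, and these libraries are called Schwann cell libraries by their label only.

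The stump was the sample richest in collagen RNA. The 44 genes together took 2.72% to 6.04% of all counts in stumps of immediate repair and 2.87% to 8.13% in stumps of delayed repair. In the Schwann cell libraries the same sum ran from 0.00390% to 2.37%, and in macrophages from 0.00192% to 0.144%. The mean level was above 1 CPM for 41 of the 44 genes in the stump, for 33 in Schwann cells and for 15 in macrophages. Col13a1, Col22a1, Col25a1, Col6a4, Col9a1 and Col9a2 had no count in any of the 32 macrophage libraries, and Col2a1 had none in any of the 31 Schwann cell libraries.

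**Figure D1:**
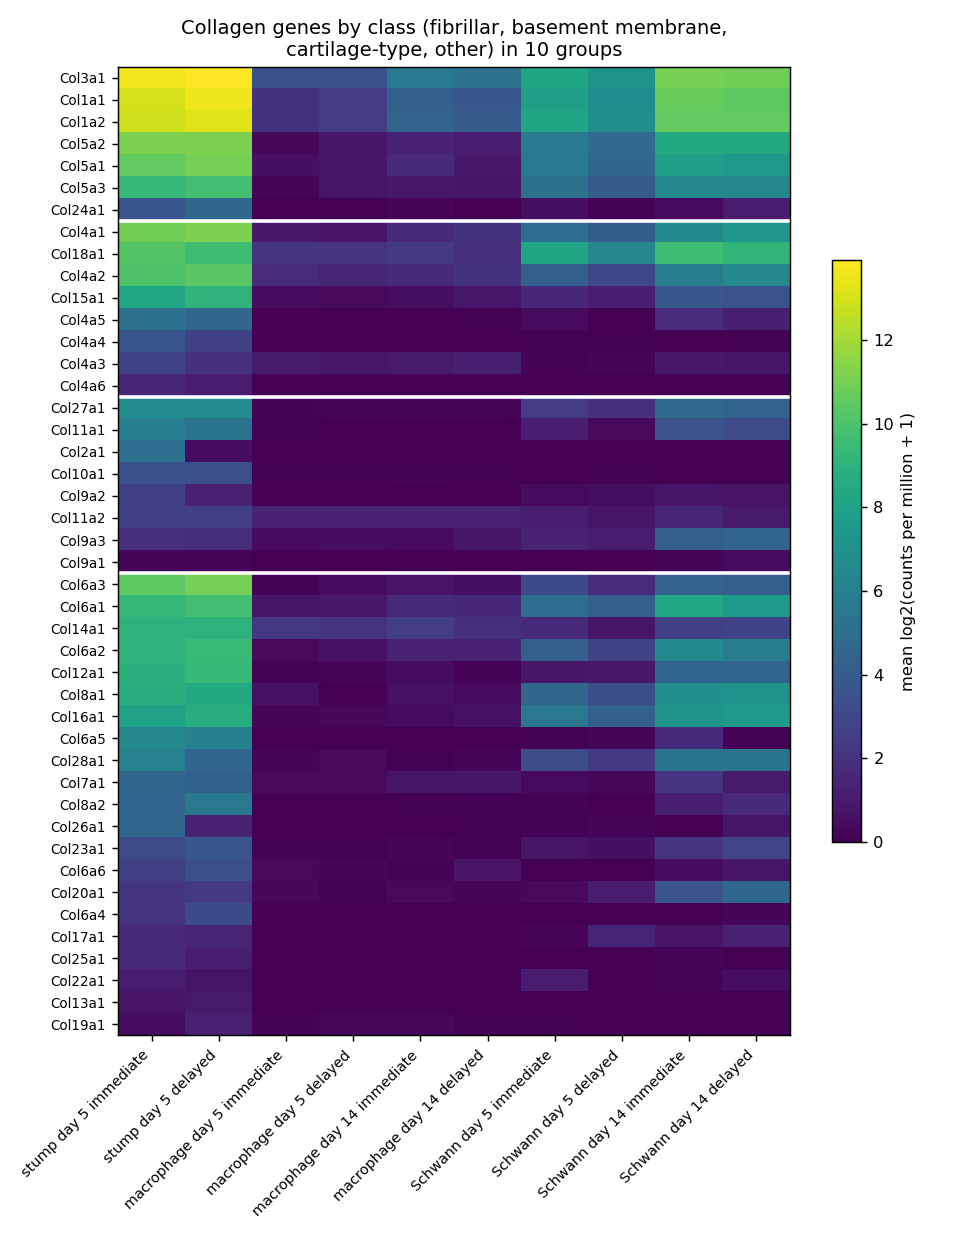
Mean log2(CPM + 1) of the 44 collagen genes (rows, ordered by class) in the 10 groups of libraries (columns). Col1a1, Col1a2 and Col3a1 are the brightest rows of the stump and, with Col18a1, are among the brightest of the Schwann cell libraries, and 15 genes exceed a mean of 1 CPM in macrophages against 41 in the stump.

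Genes were set beside each other per kilobase (kb) of exon, with the length taken over all annotated exons. This length was 12.4 kb for Col1a2 and 6.56 kb for Col1a1, so the place of Col1a2 depends on it. In plain CPM the stump means were 15356 for Col3a1, 11157 for Col1a1 and 9345 for Col1a2. Per kb, Col1a1 led in the stump with a level of 1700 CPM per kb (SD 735, n = 16), followed by Col3a1 with 1564 (SD 653) and Col1a2 with 752 (SD 264). Col1a1 and Col1a2 encode the chains of type I collagen, the main tensile fibril, and Col3a1 the single chain of type III collagen, which is prominent in early repair tissue. The first and the second did not differ beyond their spread. Col4a1, the commonest type IV chain, came next at 287 CPM per kb (SD 51.9), ahead of Col5a2 at 241 (SD 43.9), Col5a1 at 221 (SD 69.8), Col4a2 at 183 (SD 28.8) and Col6a1 at 179 (SD 64.5), and each of these overlapped its neighbour within 1 SD. In Schwann cell libraries the order opened with Col3a1 at 193 CPM per kb (SD 246, n = 31), Col1a1 at 185 (SD 219), Col1a2 at 90.1 (SD 99.0) and Col18a1 at 83.5 (SD 80.1), with SDs close to or above the means. Col18a1 encodes type XVIII collagen, a basement membrane proteoglycan whose end fragment is endostatin. Per kb it held rank 3 at day 5 and rank 4 at day 14 in Schwann cell libraries. Its rank in the stump was 10, at 137 CPM per kb (SD 40.2). Ranked by plain CPM over both days, it was at 4 in Schwann cell libraries, behind Col1a2 at 3. Of the 2 leading genes Col3a1 was the higher at day 5 (81.2 against 53.2 CPM per kb) and Col1a1 at day 14 (325 against 312), within their SDs. In macrophages Col3a1 led at 5.21 CPM per kb (SD 10.5, n = 32), before Col1a1 at 3.57 (SD 9.52). Without immediate day 14 replicate 7 these means were 3.51 and 2.002.

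The sequence before the start of Col3a1 is shown because this gene and Col1a1 headed all 3 kinds of sample. It lies on the plus strand at chr1:45311288-45311537 (GRCm38, RefSeq). Capitals mark the letters TATAAA and ACAAAG.
Col3a1: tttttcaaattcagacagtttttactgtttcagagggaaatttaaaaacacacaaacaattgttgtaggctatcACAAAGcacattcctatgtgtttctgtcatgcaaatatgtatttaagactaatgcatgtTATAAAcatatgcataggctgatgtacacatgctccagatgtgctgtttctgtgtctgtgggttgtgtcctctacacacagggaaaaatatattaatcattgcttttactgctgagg
Promoter windows were available for 35 of the 44 genes, as 38 windows of 250 bases before the start. On either strand, TATAAA occurred in 5 of these 38 windows (13.2%) and in 12.4% of all 32851 windows, CCAAT in 13 (34.2%) against 33.8%, GGGCGG in 22 (57.9%) against 32.7%, and ACAAAG, the core letters bound by SOX proteins, in 4 (10.5%) against 16.5%. Matches overlapped only between neighbouring GGGCGG in the windows of Col6a2 and Col8a2. A match describes the letters only.

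In the distal stump, where delayed was compared with immediate repair, 12229 genes were tested and 26.3% of them passed an adjusted p of 0.05, 12.8% higher and 13.5% lower after delay. Of the 35 collagens tested, 9 passed, 4 higher (Col15a1, Col16a1, Col4a1 and Col6a4) and 5 lower (Col2a1, Col26a1, Col18a1, Col4a5 and Col4a4), a share close to that of all genes. By class, 5 of 7 basement membrane genes passed, 2 higher and 3 lower, against 0 of 7 fibrillar, 1 of 5 cartilage-type and 3 of 16 other genes. The median log2 fold change of the 35 was 0.30, beside 0.02 over all genes tested. Of these 35 genes, 29 reached 5 CPM in at least 6 libraries of each repair group, Col2a1 and Col26a1 did so only in immediate repair, Col6a4 only in delayed repair, and Col4a3, Col11a2 and Col20a1 only over both groups together. Col2a1, Col26a1 and Col6a4 were thus let in by the group in which they are high, and their direction is no result of the test. Of the 29 genes that reached the minimum in both groups, 6 passed (20.7%), 3 higher and 3 lower. The other 9 collagens stayed under the minimum. In the same stumps the 12 Schwann cell markers summed to 1567 to 3619 CPM in immediate and 187 to 1025 CPM in delayed repair, without overlap, and endothelial markers were at 818 to 1160 CPM against 1318 to 2004 CPM. Their part in the collagen differences was not tested, and fewer cells of a type cannot be told apart from less RNA per cell in such bulk samples.

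**Figure D2:**
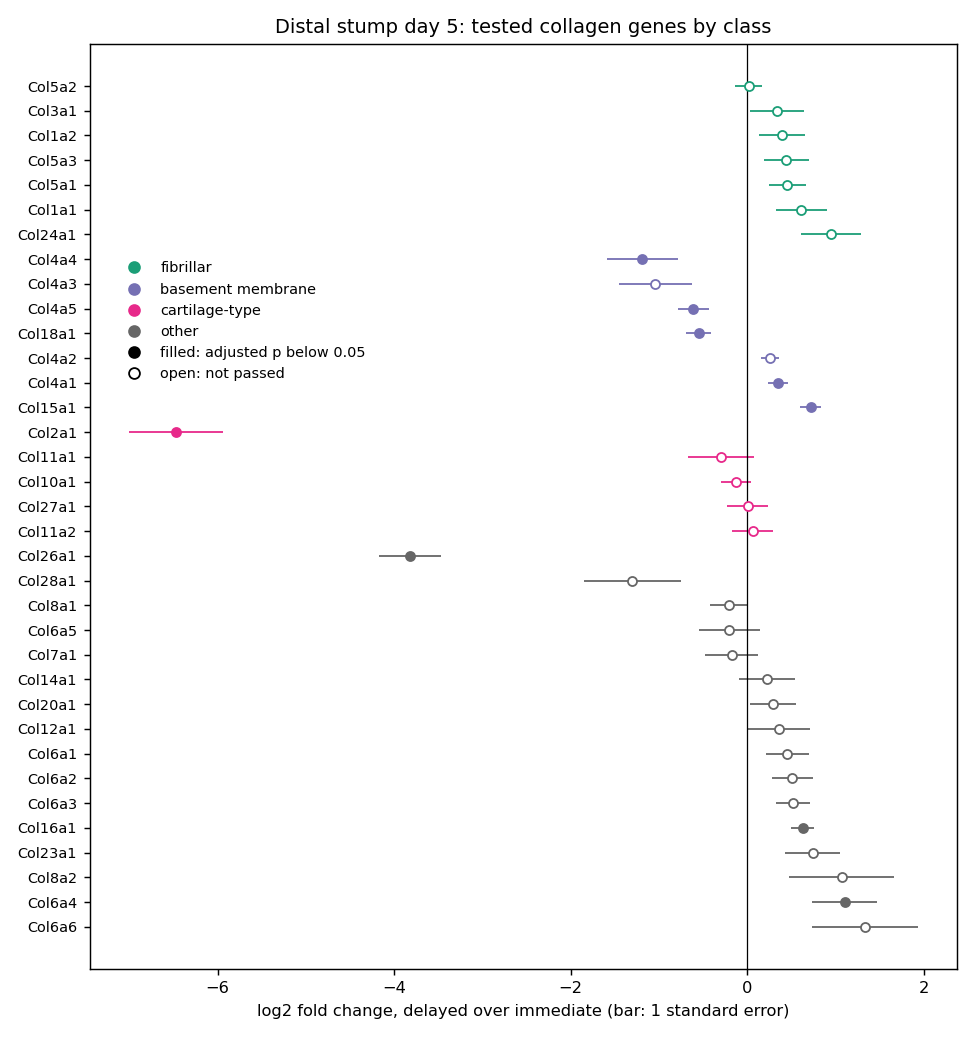
Log2 fold change (delayed over immediate repair, bar 1 SE, n = 9 and 7) of the 35 collagen genes tested in the stump, coloured by class, with filled points for an adjusted p under 0.05. The 7 fibrillar genes lie at or above 0 with open points, while 5 of the 7 basement membrane genes are filled, on both sides of 0.

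The fibrillar collagens carried the bulk of the collagen RNA, 77.5% of it in immediate and 79.0% in delayed stumps on average, and none of the 7 passed the test by edgeR, although 3 had an unadjusted p under 0.05, and Col24a1 was called by DESeq2, by limma-voom and with sex as a covariate. Their summed level was 18729 to 50409 CPM (median 35352) in immediate and 19926 to 68634 CPM (median 44099) in delayed repair. All 7 fold changes were above 0, with a median log2 value of 0.44. Col1a1 (chr11:94936224-94953042) was 4143 to 11030 CPM (median 9597) in immediate and 5410 to 20862 CPM (median 14793) in delayed stumps, a log2 difference of 0.61 ± 0.28 (SE; edgeR adjusted p = 0.12). The delayed group thus spread about as low as the immediate one and reached higher. Col1a2 (chr6:4504814-4541544) ran from 4519 to 11594 CPM (median 7994) against 4327 to 15191 CPM (median 10203), which differed by 0.39 ± 0.26 (adjusted p = 0.27). Col3a1 (chr1:45311538-45349706) was 7039 to 22517 CPM (median 11941) against 6897 to 27089 CPM (median 16614), with a log2 difference of 0.34 ± 0.30 (adjusted p = 0.44). Type V chains set the width of type I fibrils. Col5a1 differed by 0.45 ± 0.21 (adjusted p = 0.12) and Col5a3 by 0.44 ± 0.26 (adjusted p = 0.22), while Col5a2, which lies tail to tail with Col3a1 at a distance of 24614 bases, differed by 0.01 ± 0.15 (adjusted p = 0.95). Nearest to the threshold was Col24a1, a minor fibrillar chain, at 3.61 to 26.7 CPM (median 14.0) against 13.7 to 49.2 CPM (median 28.0), with a log2 difference of 0.95 ± 0.34 (adjusted p = 0.0507). It passed in 5 of 16 fits that left out 1 library each.

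The basement membrane genes moved in both directions. Col15a1 (chr4:47208161-47313167, plus strand), which encodes a proteoglycan collagen that ties basement membranes to the fibrils beneath them, was 275 to 408 CPM (median 324) in immediate and 391 to 667 CPM (median 546) in delayed stumps. Each of the 9 delayed stumps lay above the immediate mean, and the log2 fold change was 0.72 ± 0.12 (adjusted p = 0.000385). Its relative Col18a1 (chr10:77052178-77166548, minus strand) went the other way, with 864 to 1457 CPM (median 1223) in immediate and 635 to 1200 CPM (median 677) in delayed repair. There 8 of 9 delayed values lay below the immediate mean, and the log2 fold change was -0.55 ± 0.14 (adjusted p = 0.0099). The call of Col18a1 was lost when the 5 stump libraries with over 500 CPM of muscle or adipocyte markers were left out. Its log2 fold change stayed between -0.645 and -0.449 over 25 fits, the main one included.

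Type IV collagen consists of 6 chains that are encoded by 3 pairs of genes lying head to head. Col4a1 (chr8:11198423-11312826, minus strand) and Col4a2 (chr8:11312805-11449287, plus strand) overlap by 22 bases at their starts, so that their first exons share sequence. Col4a1 was 1531 to 2113 CPM (median 1922) in immediate and 1643 to 2841 CPM (median 2290) in delayed stumps, and rose by 0.34 ± 0.11 on the log2 scale (adjusted p = 0.033). This call held in only 7 of the 16 fits that left out 1 library, being lost without delayed replicate 2, 3, 4 or 6 or immediate replicate 1, 2, 6, 7 or 8. Col4a2 was 934 to 1246 CPM (median 1097) against 898 to 1591 CPM (median 1293), a log2 difference of 0.26 ± 0.10 (adjusted p = 0.0755). In each of the other pairs 1 member passed. Col4a4 (chr1:82448423-82586849, minus strand) was 5.64 to 27.9 CPM (median 10.1) in immediate and 0.776 to 12.0 CPM (median 5.45) in delayed repair and fell by 1.19 ± 0.40 on the log2 scale (adjusted p = 0.036), a call lost without delayed replicate 2, 3, 4, 5 or 9 or immediate replicate 1, 3 or 6. Its partner Col4a3 (chr1:82586921-82722059, plus strand) was 2.26 to 13.2 CPM (median 5.32) against 0.524 to 6.66 CPM (median 3.24), with a log2 difference of -1.04 ± 0.42 (adjusted p = 0.0726). For both genes all 9 delayed stumps lay below the immediate mean.

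Col4a5 (chrX:141475385-141689234, plus strand), the chain whose human gene is mutated in X-linked Alport syndrome, was 27.0 to 44.6 CPM (median 39.0) in immediate and 13.8 to 33.4 CPM (median 22.5) in delayed stumps. All 9 delayed values lay below the immediate mean, and it fell by 0.61 ± 0.17 on the log2 scale (adjusted p = 0.015). Its neighbour Col4a6 (chrX:141165403-141474076, minus strand), whose start lies 1308 bases away, stayed under the minimum for testing with 1.17 to 2.85 CPM (median 1.47) against 0.524 to 1.94 CPM (median 1.28). The sequences that lie between or before the starts of these genes are shown because genes of a type IV pair start close together, and that of Col15a1 because it rose. The first holds all 71 bases between Col4a4 and Col4a3 (chr1:82586850-82586920, read on the minus strand), and the second the 216 bases before Col4a5 that no exon covers (chrX:141475169-141475384, plus strand, capitals for CCAAT). The third, before the RefSeq start of Col15a1 (chr4:47207762-47208011, plus strand), held none of the 4 motifs.
Col4a4 and Col4a3: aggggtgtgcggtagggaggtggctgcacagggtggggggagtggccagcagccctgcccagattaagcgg
Col4a5: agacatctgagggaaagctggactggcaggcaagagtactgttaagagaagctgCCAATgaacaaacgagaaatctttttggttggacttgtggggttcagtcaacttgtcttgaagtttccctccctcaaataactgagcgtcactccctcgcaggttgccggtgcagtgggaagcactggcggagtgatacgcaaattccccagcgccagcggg
Col15a1: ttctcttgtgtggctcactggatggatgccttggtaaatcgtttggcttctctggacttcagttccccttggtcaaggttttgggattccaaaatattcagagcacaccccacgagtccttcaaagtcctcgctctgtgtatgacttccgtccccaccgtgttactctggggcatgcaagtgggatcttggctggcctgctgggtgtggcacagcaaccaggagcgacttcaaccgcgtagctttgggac
The upstream windows of Col4a1 and Col4a2 lie wholly within exons and are not shown.

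Of the cartilage-type class, 3 genes reached the minimum in both groups and 0 of them passed. Col2a1 (chr15:97975602-98004695, minus strand), the chain of type II collagen and the main fibril of cartilage, was 13.1 to 73.8 CPM (median 37.4) in the 7 immediate stumps and 0 to 1.36 CPM (median 0.169) in the 9 delayed stumps, 3 of which had no count. The groups were apart, with 1772 counts in the immediate and 21 in the delayed libraries, and the fitted log2 fold change was -6.47 ± 0.53. As the gene reached the minimum only in immediate repair, these levels are a description. Of the 8 cartilage markers 7 were in the tables, and they summed to 18.8 to 40.5 CPM in immediate and 13.6 to 67.1 CPM in delayed stumps. Among them Sox9, a regulator of both cartilage and Schwann cell genes, was at 15.7 to 36.1 CPM against 10.6 to 19.7 CPM, Acan reached 4.78 against 50.6 CPM, and Hapln1 stayed at or under 0.877 CPM in both groups. Col11a1, which copolymerises with type II collagen, was 35.9 to 89.8 CPM (median 70.3) against 8.10 to 121 CPM (median 42.3), a log2 difference of -0.30 ± 0.38 (adjusted p = 0.60). Col27a1 was 67.8 to 193 CPM (median 85.8) against 67.3 to 146 CPM (median 108), a log2 difference of 0.00 ± 0.24 (adjusted p = 0.99), and Col10a1 and Col11a2 differed by -0.13 ± 0.17 (adjusted p = 0.61) and 0.06 ± 0.23 (adjusted p = 0.87).

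Among the other collagens, Col26a1 (chr5:136741759-136883209, minus strand), a short secreted chain with little known function, was 9.498 to 44.3 CPM (median 23.0) in immediate and 0.202 to 3.59 CPM (median 1.55) in delayed stumps. The groups did not overlap, and the fitted log2 fold change was -3.82 ± 0.35, a description too, since this gene also reached the minimum in immediate repair alone. Col16a1 (chr4:130047840-130099283, plus strand), a fibril-associated collagen, was 175 to 329 CPM (median 284) against 362 to 523 CPM (median 387). Here too the groups did not overlap, with every delayed value higher, and the log2 fold change was 0.63 ± 0.13 (adjusted p = 0.00255). It was the 1 gene with groups fully apart among the 29 collagens that reached the minimum in both groups, beside 4.44% of all genes tested. Col6a4 (chr9:105989454-106096783, minus strand), a chain of the type VI beaded filaments, was 1.05 to 7.74 CPM (median 3.07) against 2.88 to 13.8 CPM (median 7.69) with a fitted log2 fold change of 1.10 ± 0.37, and reached the minimum in delayed repair alone. The abundant type VI chains Col6a1, Col6a2 and Col6a3 had log2 differences of 0.45 ± 0.24 (adjusted p = 0.18), 0.51 ± 0.23 (adjusted p = 0.11) and 0.51 ± 0.19 (adjusted p = 0.0576), each with 8 of 9 delayed stumps above the immediate mean. Col28a1 was 26.8 to 208 CPM (median 70.8) against 9.79 to 138 CPM (median 16.2), a log2 difference of -1.30 ± 0.55 (adjusted p = 0.0907).

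**Figure D3:**
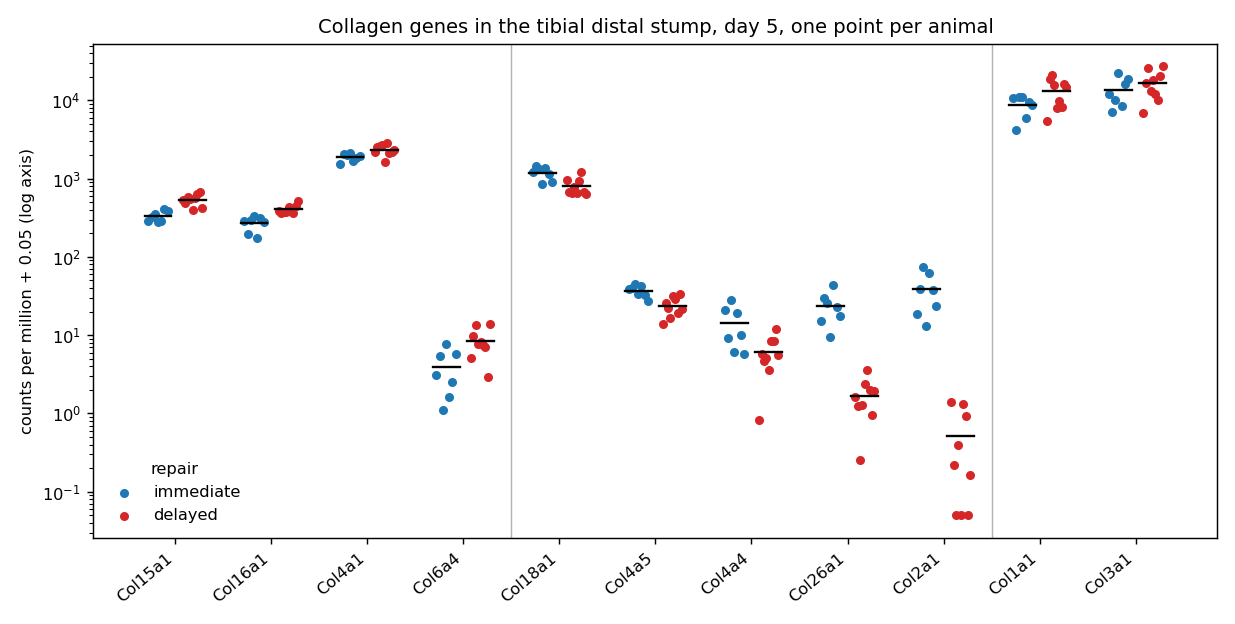
CPM + 0.05 (log axis) of 11 collagen genes in each stump library, with immediate repair in blue, delayed repair in red and the mean as a bar. Delayed values of Col2a1 and Col26a1 lie wholly below and those of Col16a1 wholly above the immediate values, whereas Col1a1 and Col3a1 overlap over most of their range.

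Repair was also tested for an interaction with sex, which passed for 0 of the 35 genes by edgeR, with 1 at an unadjusted p under 0.05 (Col6a5), and for 0 by DESeq2. By edgeR it passed for 0% of all 12229 genes too, so the 0 is not particular to collagens. The proportions of chains that assemble together were compared within each library, which needs no scaling. The ratio of Col1a2 to Col1a1 differed between delayed and immediate stumps by -0.20 on the log2 scale (exact two-sided permutation test over 11440 splits, p = 0.174, adjusted over 4 ratios 0.295), and that of Col3a1 to Col1a1 by -0.24 (exact p = 0.299, adjusted 0.299). The ratio of Col4a2 to Col4a1 was 0.556 to 0.617 (median 0.587) in immediate and 0.528 to 0.592 (median 0.547) in delayed stumps, a log2 difference of -0.0845 (exact p = 0.0141, adjusted 0.0563). It passed after adjustment without delayed replicate 1 (adjusted exact p = 0.0174), immediate replicate 4 (0.0280) or immediate replicate 7 (0.0320). The ratio of Col6a2 to Col6a1 differed by 0.0717 (exact p = 0.221, adjusted 0.295).

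The genes that make, mature, bind or cut collagen were read beside the 26.3% of all genes that passed in the stump. Of 20 hydroxylases and chaperones tested in the stump, 1 rose (Glt25d1, a collagen galactosyltransferase, 0.30 ± 0.09, adjusted p = 0.0194) and 1 fell (Fkbp14, a prolyl isomerase, -0.26 ± 0.09, adjusted p = 0.0418), with a list median of 0.04 beside 0.02 for all genes. Serpinh1, which encodes Hsp47, was at 0.09 ± 0.21 (adjusted p = 0.78). Of 12 genes tested for propeptide processing and cross-linking, Pcolce2, an enhancer of C-propeptide removal, fell by 2.60 ± 0.23 (adjusted p = 9.26e-07) and the lysyl oxidase Loxl3 rose by 0.56 ± 0.12 (adjusted p = 0.00235). Of 10 receptors, 2 rose and 3 fell: Itga1 by 0.48 ± 0.12 (adjusted p = 0.00843) and Itga11, the alpha chain of an integrin for fibrillar collagen, by 1.28 ± 0.45 (adjusted p = 0.0438) upward, and Ddr1, a collagen-activated kinase, by 1.08 ± 0.17 (adjusted p = 0.000274), Gpr56 by 0.51 ± 0.17 (adjusted p = 0.031) and Itga2 by 0.42 ± 0.15 (adjusted p = 0.0406) downward. Of 6 collagen-cutting proteases, the collagenase Mmp13 rose by 1.82 ± 0.58 (adjusted p = 0.0279) and the other 5 did not pass. Which repair group let the genes of these lists past the minimum was not examined.

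In the Schwann cell libraries of the bridge, delay was not followed by a collagen difference that passed the test. At day 5, 16 collagens were tested and 0 passed by edgeR, 0 had an unadjusted p under 0.05 and DESeq2 and limma-voom called 0, while 0% of the 9604 genes tested passed. At day 14 the same held for 22 collagens and 10226 genes. The spread was wide. Col18a1 was 50.5 to 1007 CPM (median 601) in immediate and 6.29 to 707 CPM (median 57.3) in delayed repair at day 5, a log2 difference of -1.36 ± 0.79 (adjusted p = 0.92), and 99.5 to 2309 CPM (median 869) against 193 to 1103 CPM (median 661) at day 14, a difference of -0.79 ± 0.47 (adjusted p = 0.998). At day 5, 15 of the 16 fold changes were below 0, with a median of -0.65 beside -0.01 over all genes. In these libraries the median of Sox10 was 72.4 CPM in immediate and 10.1 CPM in delayed repair, and immediate replicate 1 held 9119 CPM of fibrillar collagens, with the next at 2192 CPM. Their part was not tested, and the signs of Col1a1, Col3a1 and Col4a2 turned without 1 library. The SEs of these fold changes ran from 0.63 to 1.51 at day 5, against 0.10 to 0.60 in the stump.

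Several collagens of these libraries were higher at day 14 than at day 5. Of the 24 collagens tested, 16 reached 5 CPM in at least 6 libraries of each day, counted over both repair groups. Another 6 (Col11a1, Col12a1, Col14a1, Col15a1, Col20a1 and Col9a3) did so only at day 14, and Col23a1 and Col4a5 only over both days together. Those 6 were let in by the day at which they are high, so their direction is no result. The 16 had higher fitted values at day 14 in both repair groups. The test was passed by 5 of 24 in immediate repair, where 1.96% of 10923 genes passed upward and 7.28% in either direction, and by 10 of 24 in delayed repair, where 3.02% passed upward and 6.73% in either direction. Among the 16 that reached the minimum on both days, 3 and 7 passed. DESeq2 called 9 in immediate repair and limma-voom 17 in delayed repair. The number called by edgeR moved with single libraries, from 1 to 7 in immediate repair (1 without immediate day 5 replicate 3, 2 without immediate day 5 replicate 2, 4 or 7, and 3 without immediate day 5 replicate 8 or immediate day 14 replicate 1, 4, 7 or 8), and from 6 to 13 in delayed repair (6 without delayed day 14 replicate 4). Without the 3 libraries above 50 CPM of muscle markers, 2 and 6 passed. Sox10 moved alongside, from a median of 72.4 to 130 CPM in immediate and from 10.1 to 126 CPM in delayed repair, and the fibroblast markers summed to 137 to 1604 CPM at day 5 and 198 to 2019 CPM at day 14 in immediate and to 88.2 to 841 CPM and 261 to 3038 CPM in delayed repair. Their part in the collagen differences was not tested. The interaction of repair and day passed for 0 of the 24 genes by edgeR, with 1 (Col4a5) at an unadjusted p under 0.05, and for 0 by DESeq2. It passed for 0% of all 10923 genes by edgeR, so nothing about collagens in particular follows from it.

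Among the fibrillar genes the type V chains Col5a1 and Col5a2 passed in both groups. Col5a1 was 16.4 to 163 CPM (median 61.3) at day 5 and 111 to 562 CPM (median 244) at day 14 in immediate repair, a log2 rise of 1.93 ± 0.58 (adjusted p = 0.0386), and 2.34 to 92.8 CPM (median 32.4) and 66.9 to 466.5 CPM (median 164) in delayed repair, a rise of 2.23 ± 0.55 (adjusted p = 0.015). Col5a2 rose by 2.25 ± 0.70 (adjusted p = 0.0439) in immediate and by 2.66 ± 0.66 (adjusted p = 0.0151) in delayed repair. In immediate repair these calls were lost in 8 (Col5a1) and 14 (Col5a2) of the 31 fits that left out 1 library, and in delayed repair in 0. The third chain, Col5a3, passed in neither group, at 0.89 ± 0.85 (adjusted p = 0.61) and 1.08 ± 0.81 (adjusted p = 0.47). Col1a1 was 0.687 to 767 CPM (median 234) at day 5 and 556 to 4235 CPM (median 1256) at day 14 in delayed repair, a rise of 2.53 ± 0.79 (adjusted p = 0.0485), and 43.7 to 1828 CPM (median 166) and 128 to 5229 CPM (median 2108) in immediate repair, a difference of 2.21 ± 0.84 that did not pass (adjusted p = 0.11). The call of Col1a1 in delayed repair held in only 10 of the 31 fits without 1 library. Col1a2 was at 2.59 ± 0.70 (adjusted p = 0.0244) in delayed and 2.08 ± 0.74 (adjusted p = 0.0848) in immediate repair. Col3a1, the collagen with the highest mean CPM over both days, did not pass, at 1.21 ± 1.01 (adjusted p = 0.55) and 2.33 ± 0.98 (adjusted p = 0.15) in immediate and delayed repair.

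Of the basement membrane genes, Col4a1 was 1.07 to 80.6 CPM (median 16.2) at day 5 and 25.9 to 342 CPM (median 194) at day 14 in delayed repair, a rise of 2.55 ± 0.66 (adjusted p = 0.0195), and its difference in immediate repair was 1.20 ± 0.68 (adjusted p = 0.32). Col4a2 was at 2.56 ± 0.83 (adjusted p = 0.0567) and 1.37 ± 0.85 (adjusted p = 0.39). Col4a5 was also called in delayed repair, but on 2 counts over the day 5 libraries against 554 at day 14. The ratio was 381 (exact 95% interval 105 to 3157), an interval of counting error only and not of the spread between animals. At day 14, 3 of 7 libraries were at 0 and 75.3% of the counts lay in 1 library, and the call was lost in 6 of the 31 fits. In delayed repair the gene could reach 5 CPM only at day 14, so its direction there is no result. Basement membrane genes made up 23.6% of the collagen CPM at day 5 and 12.3% at day 14 in immediate repair and 23.0% and 11.9% in delayed repair, as means over libraries, and the fibrillar share was 63.0% and 75.8%, and 63.7% and 75.3%.

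In the remaining classes Col27a1 and Col16a1 passed among the genes that reached the minimum on both days. Col27a1, a thin-fibril chain, was 1.58 to 8.77 CPM (median 5.41) at day 5 and 13.1 to 43.7 CPM (median 32.2) at day 14 in immediate repair, without overlap, a rise of 2.41 ± 0.58 (adjusted p = 0.0101). In delayed repair it was 0.166 to 9.41 CPM (median 3.74) and 7.36 to 74.8 CPM (median 19.3), a rise of 2.41 ± 0.54 (adjusted p = 0.00806). Its day 5 median in delayed repair lay under 5 CPM, the minimum having been counted over both repair groups. Of Col9a3, Col12a1 and Col20a1, which were let in by day 14, only the levels are given. Col9a3, which shares exon bases with Tcfl5, was 0 to 5.25 CPM (median 0.0325) at day 5 and 0.694 to 104 CPM (median 20.2) at day 14 in delayed repair. The fibril-associated Col12a1 was 0 to 3.49 CPM (median 0.962) at day 5 and 8.89 to 42.6 CPM (median 24.3) at day 14 in immediate repair. Col20a1 was 0 to 2.76 CPM (median 0.0702) and 0 to 52.2 CPM (median 17.8) there. Col16a1 was 0 to 76.3 CPM (median 12.6) and 91.9 to 344 CPM (median 255) in delayed repair, without overlap and with a rise of 2.60 ± 0.58 (adjusted p = 0.00806), and its difference in immediate repair was 1.60 ± 0.61 (adjusted p = 0.11). Of the genes that handle collagen, 2 of 19 hydroxylases and chaperones, 0 of 10 processing and cross-linking genes, 0 of 7 receptors and 0 of 6 proteases passed in immediate repair, beside 7.28% of all genes, and 2, 0, 0 and 1 in delayed repair, beside 6.73%. Ppib (0.48 ± 0.12, adjusted p = 0.0163) and Crtap (0.95 ± 0.29, adjusted p = 0.0429), partners in one prolyl 3-hydroxylase complex, rose in immediate repair. In delayed repair Serpinh1 rose by 2.198 ± 0.592 (adjusted p = 0.0237) and the gelatinase Mmp2 by 3.34 (adjusted p = 0.0402), while Glt25d1 fell by 0.81 ± 0.17 (adjusted p = 0.00486). Which day let these collagen-handling genes past the minimum was not examined.

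**Figure D4:**
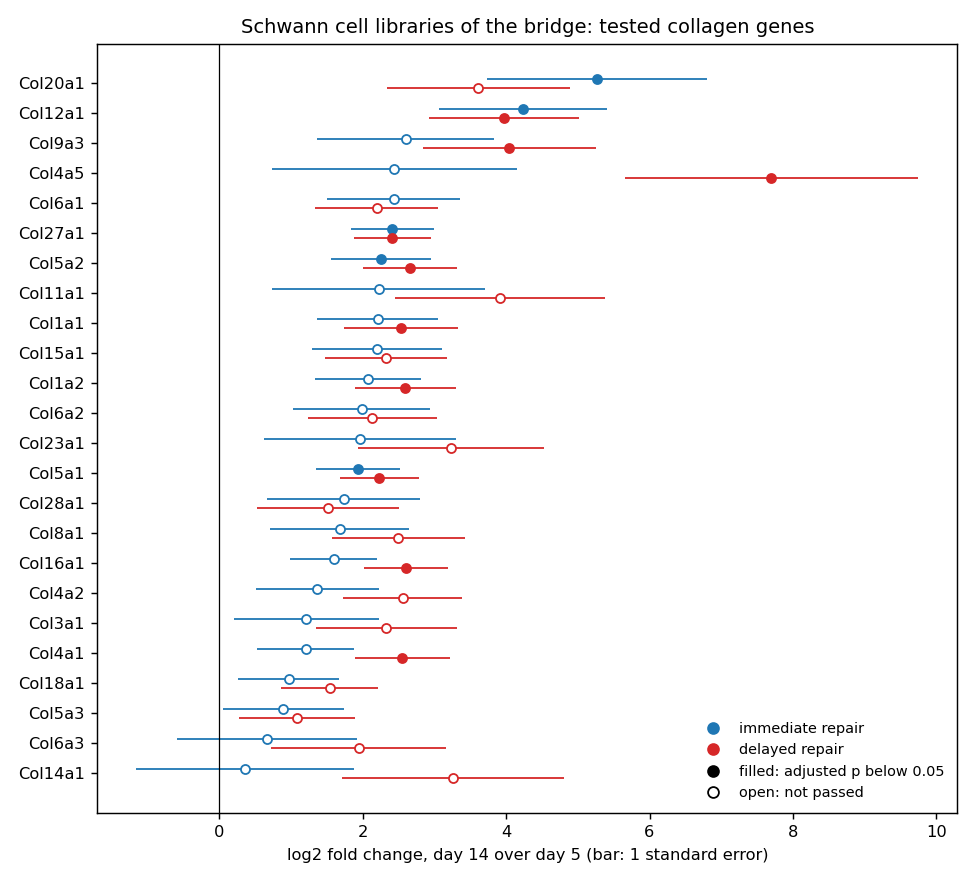
Log2 fold change (day 14 over day 5, bar 1 SE) of the 24 collagen genes tested in Schwann cell libraries, with immediate repair in blue, delayed repair in red and filled points for an adjusted p under 0.05. Every point lies above 0, 6 of the genes having reached the minimum for testing at day 14 only, and 5 are filled in immediate and 10 in delayed repair.

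Macrophages of the same animals held far less collagen RNA than the Schwann cell libraries. At day 5, 16 of 17 collagens tested were higher in Schwann cell libraries, where 35.6% of 10087 genes were higher and 65.5% passed in either direction. At day 14 it was 21 of 22, with 36.9% of 10596 genes higher and 64.4% in either direction. Most of these genes, 12 at day 5 and 18 at day 14, reached 5 CPM in at least 6 libraries only in the Schwann cell libraries, so their direction was fixed by that minimum and the counts are no result about collagens. The genes that reached it in both kinds of library were Col18a1, Col1a1, Col1a2 and Col3a1 at day 5, of which 4 were higher in Schwann cell libraries, and Col14a1, Col1a1, Col1a2 and Col3a1 at day 14, of which 3 were higher. Not passing on either day was Col14a1, a fibril-associated collagen, at 0 to 33.9 CPM (median 0.0513) in Schwann cell libraries and 0.824 to 15.9 CPM (median 3.64) in macrophages at day 5, a log2 difference of -0.88 ± 0.87 (adjusted p = 0.38), and at 1.15 ± 0.68 (adjusted p = 0.14) at day 14. With animal as a block Col14a1 passed at day 5. Col18a1 at day 14 was 99.5 to 2309 CPM (median 667) in Schwann cell libraries and 0 to 9.80 CPM (median 3.67) in macrophages. Col4a1 was 11.4 to 342 CPM (median 129) against 0.619 to 9.54 CPM (median 2.32). Col16a1 was 23.1 to 344 CPM (median 204) against 0 to 7.36 CPM (median 0). The 2 kinds of library did not overlap for these 3 genes at day 14, but each reached the minimum in Schwann cell libraries alone, so the levels are a description. Col3a1 did overlap, with 226 to 10427 CPM (median 2043) against 9.52 to 570 CPM (median 37.8) and a difference of 5.04 ± 0.59 (adjusted p = 9.43e-09). Col11a1 had no count in any of the 15 macrophage libraries of day 14 and a mean of 14.9 CPM in Schwann cell libraries, which also let it in alone. Of the genes for collagen maturation at day 14, 10 hydroxylases and chaperones reached the minimum in both kinds of library, 3 of them higher in Schwann cell libraries, among them Serpinh1 (6.23 ± 0.36), and 6 lower. Only 1 processing and cross-linking gene did so, the lysyl oxidase Loxl2, and it was higher. Of 4 such proteases 1 was higher and 2 lower, among them Mmp13 (-3.66).

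**Figure D5:**
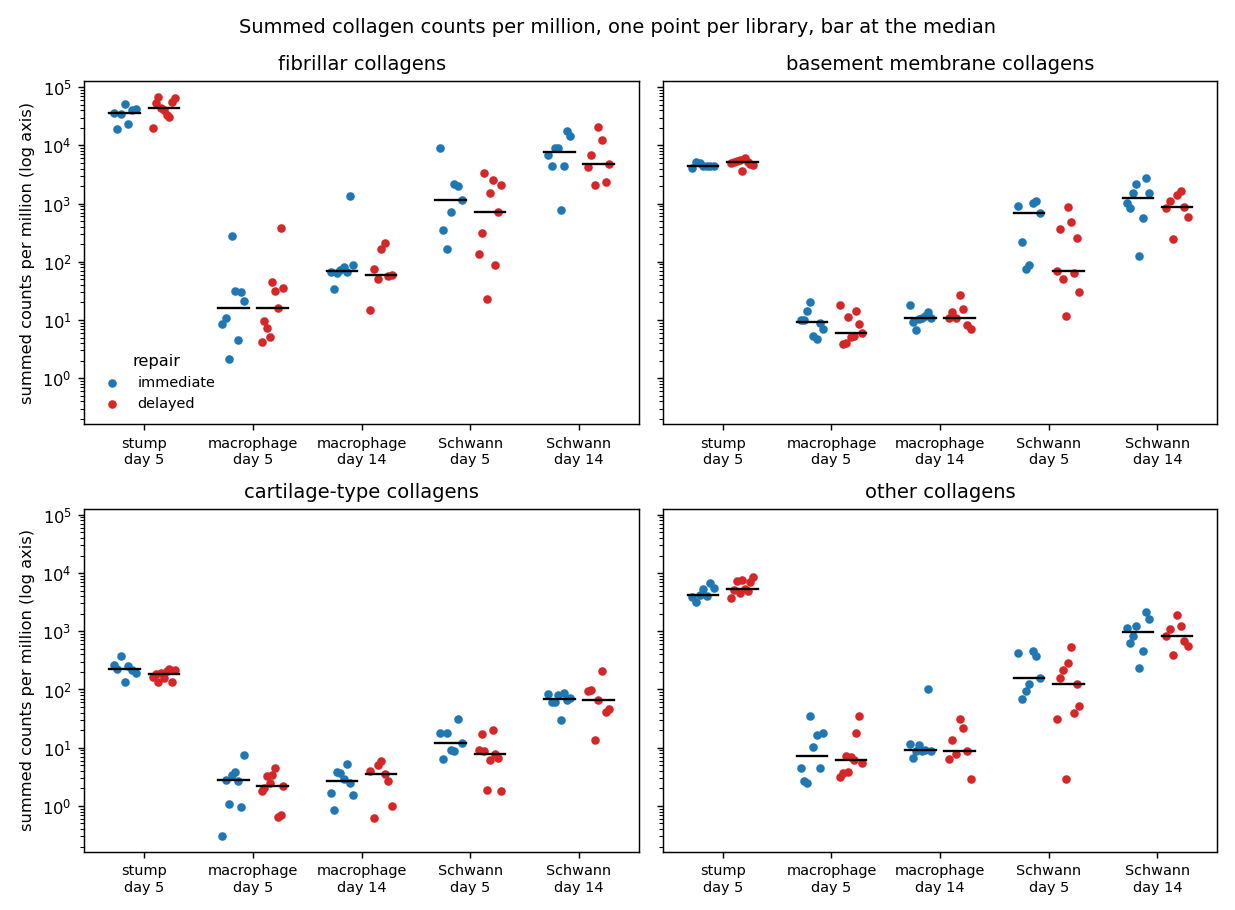
Summed CPM (log axis) of the 4 collagen classes, 1 point per library with the median as a bar, in immediate (blue) and delayed (red) repair. The fibrillar sum is highest in the stump (medians 35352 and 44099 CPM), rises from day 5 to day 14 in Schwann cell libraries (1160 to 7813 and 710 to 4852 CPM) and lies between 2.15 and 1325 CPM in macrophages.

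Within macrophages, only 4 collagens could be tested at each day. The comparison of delayed with immediate repair called 0 of 4 at day 5 by edgeR, DESeq2 and limma-voom (0.0357% of 8409 genes passed), and 0 of 4 at day 14 (0% of 8589 genes), with 0 at an unadjusted p under 0.05 on either day. At day 5 Col1a1 differed by 1.28 ± 1.03 and Col3a1 by -0.83 ± 0.93, and at day 14 Col1a1 by -1.53 ± 0.87 and Col3a1 by -1.04 ± 0.69 on the log2 scale. Several of these signs turned with another tool or without 1 library. Few libraries carried most of the fibrillar RNA: the sum was 384 CPM in 1 delayed library (replicate 8) and 276 CPM in 1 immediate library (replicate 4) of day 5, and 1325 CPM in immediate replicate 7 of day 14, against medians of 16.2 to 70.3 CPM. In these 3 libraries the fibroblast gene Dcn was 20.2, 58.7 and 32.9 CPM, whereas Pdgfra was 0, 4.78 and 2.68 CPM, Lum 0, 5.76 and 17.5 CPM, and Sox10 had no count. Dcn was also 21.0 CPM in delayed replicate 6 of day 14, at a fibrillar sum of 214 CPM. By the paper, the sort excluded Thy1.2-positive cells as fibroblasts. Their part was not tested. From day 5 to day 14, 0 of 5 collagens passed by edgeR in either repair group, where 11.8% and 9% of 8949 genes passed, with 2 (Col1a1 and Col1a2) and 0 at an unadjusted p under 0.05. Col1a1 was 0.211 to 30.4 CPM (median 2.95) at day 5 and 5.34 to 342 CPM (median 12.4) at day 14 in immediate repair, a log2 difference of 2.88 ± 1.06 (adjusted p = 0.0706), which DESeq2 called. The interaction of repair and day passed for 0 of 5 by edgeR and DESeq2 (0.0223% of 8949 genes by edgeR), with 0 at an unadjusted p under 0.05.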

How the data were processed

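RNA was measured in mouse macrophages and Schwann cells sorted from the regenerative bridge and in the tibial distal stump. For the deposited tables the authors trimmed reads (cutadapt 1.8), removed rRNA reads of the stump with bowtie2, aligned to mm10 (TopHat2 2.1.1) and obtained estimated counts per gene. The submitters' processing notes also name Cufflinks 2.2.1 and Cuffnorm, and the paper names cuffnorm and cuffdiff for its expression values. Which program wrote the estimated counts is not stated in the sources used here. Of these expected counts 0.8% to 1.26% per library were not whole, and all were rounded. The kit for sorted cell libraries does not mark strand, so overlapping genes share reads.

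Groups follow the sample labels, and each table column matched 1 sample. A gene was tested where 6 or more of the fitted libraries reached 5 CPM, by edgeR 4.0.16 (quasi-likelihood, R 4.3.3, TMM scaling, no covariates), Benjamini-Hochberg adjusted over all genes tested, threshold 0.05. SE is the log2 fold change over the square root of F. Day and interaction came from 1 fit of all groups of a cell type. Macrophage and Schwann cell libraries with the same number came from the same animal (31 animals with both). By the labels, delayed and immediate animals share only a number. No 2 libraries of a group held identical values (0 pairs). The tests were tested on simulated data. Alternatives were DESeq2 1.42.0, limma-voom (limma 3.58.1), library size scaling, other filters, sex, the replicate block and libraries left out. The members, classes and lists were chosen with earlier results of these data known. Genes named are up to 4 of each class with the smallest p per comparison, the 2 highest per class and sample type, and up to 4 of each list, together with the genes that passed. Overlapping type IV starts, Col10a1 with Nt5dc1, Col9a3 with Tcfl5 and Col7a1 with Mir711 may share reads. Positions and exon lengths are from GENCODE annotation of GRCm38 and promoter windows from RefSeq (GRCm38.p6).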

Additional observations from a re-analysis of the deposited data

Results flagged for a closer look

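In groups of 4 to 10 libraries, a library was marked where it stood far from the others of its group by Dixon's criterion. For normally distributed values chance alone meets it in about 1 in 20 groups. Values in CPM are skewed and the classes share libraries, so that rate need not hold here. Of 64 groups of values examined, 9 had such a library, 6 of them in macrophages. Summed fibrillar collagens were 276 CPM in macrophages of immediate repair at day 5, replicate 4, with the next library at 31.0 CPM and a median of 16.3 CPM. They were 384 CPM in macrophages of delayed repair at day 5, replicate 8 (next 44.8, median 16.2 CPM), and 1325 CPM in macrophages of immediate repair at day 14, replicate 7 (next 87.8, median 70.3 CPM). The other collagens stood out in the last 2 of these libraries as well, at 35.2 CPM (next 18.2, median 6.16 CPM) and 102 CPM (next 11.5, median 9.05 CPM). Summed basement membrane collagens were 27.4 CPM in macrophages of delayed repair at day 14, replicate 4 (next 15.6, median 10.9 CPM). That library also held Sox10 at 1.75 CPM, the highest of the macrophage libraries.

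In Schwann cell libraries, the fibrillar sum was 9119 CPM in immediate repair at day 5, replicate 1 (next 2192, median 1160 CPM), and the cartilage-type sum was low, at 29.8 CPM, in immediate repair at day 14, replicate 5 (next 60.7, median 68.6 CPM). In the stump, Col16a1 was 523 CPM in delayed replicate 9 (next 443, median 387 CPM). Without that animal the rise of Col16a1 still passed the test.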

How the results depend on the processing

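Of the 5 collagens lower and 4 higher in delayed stumps, Col15a1, Col16a1 and Col4a5 passed in all 16 fits without 1 library and in all 8 other fits, as did Col26a1 and Col2a1, which immediate repair alone let in. The stump total of 9 was 13 with DESeq2, 11 with limma-voom, 8 with library size scaling, 10 with filterByExpr, 9 with no filter, 10 with sex as a covariate and 8 without libraries high in muscle or adipocyte markers, and 6 to 13 without 1 library each. With the replicate block it was 7, Col4a4 and Col6a4 being lost. In the stump, same-numbered delayed and immediate animals did not deviate together (correlations of -0.283 to 0.112 over 7 pairs, 1 of them over 0.1). In macrophages 7 of 8 pairs were over 0.1 at day 5 (-0.0232 to 0.495) and 6 of 7 at day 14 (-0.0315 to 0.502). In Schwann cell libraries 3 of 7 pairs were over 0.1 on each day. The day comparison of Schwann cell libraries gave 9 (DESeq2) and 3 (no filter) in place of 5 in immediate repair and 17 (limma-voom) in place of 10 in delayed repair, and 2 and 6 without the libraries high in muscle markers, an alternative chosen after seeing the data like the other ones named for markers. Without 1 library these counts were 1 to 7 and 6 to 13. In macrophages over days, DESeq2 and library size scaling each gave 1 (Col1a1, immediate), and filterByExpr and no filter each 1 (Col4a1, delayed). Schwann cell libraries against macrophages gave 31 and 32 with no filter, where genes at 0 in macrophages entered. Library size scaling moved the median of all genes in the Schwann cell day comparison to 0.23 and 0.26. The other comparisons of delayed with immediate repair in sorted cells had 0 calls throughout. The ratio ranges without 1 library were -0.27 to -0.15 (Col1a2 to Col1a1), -0.36 to -0.16 (Col3a1 to Col1a1), -0.0979 to -0.0726 (Col4a2 to Col4a1) and 0.0537 to 0.103 (Col6a2 to Col6a1).

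Signs of values that had not passed turned as follows, and the cause was not tested. In the stump, Col10a1 was 0.0525 with limma-voom, and Col11a2 ran from -0.0613 to 0.20 without 1 library. In macrophages at day 5, Col3a1 was 0.91 with DESeq2 and 0.0765 with the replicate block, Col18a1 0.0283 and Col1a2 -0.11 with sex, and Col1a1 -0.31 with limma-voom. Without 1 library, Col18a1 ran from -0.49 to 0.18, Col1a2 from -1.04 to 2.32 and Col3a1 from -1.82 to 0.95. At day 14, Col1a1 and Col1a2 were 0.53 and 0.48 with DESeq2, and without 1 library Col1a1 ran from -2.01 to 0.54, Col1a2 from -1.52 to 0.50 and Col3a1 from -1.41 to 0.33. In Schwann cell libraries at day 5 the ranges were -1.23 to 0.26 for Col1a1, -1.71 to 0.35 for Col3a1 and -1.06 to 0.20 for Col4a2. At day 14, Col15a1 was 0.00998 with DESeq2 and 0.0188 with library size scaling, Col11a1 -0.0787 with sex and -0.24 with the replicate block, and Col9a3 -0.0546 with limma-voom, with ranges of -0.84 to 0.47 for Col11a1, -0.45 to 0.24 for Col15a1, -0.26 to 0.12 for Col5a2 and -0.43 to 0.0189 for Col5a3. Depth of the stump limits genes near 1 CPM, since 3 counts were up to 0.769 CPM there.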
